A study of Mus musculus with 2 samples.

Results

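The 10 CC chemokine genes described here are *Ccl2*, *Ccl3*, *Ccl4*, *Ccl5*, *Ccl6*, *Ccl7*, *Ccl9*, *Ccl12*, *Ccl17* and *Ccl22*. They were taken by their symbols from a deposited table of 37451 Ensembl genes, in which each symbol had 1 row. The table gives the RNA level of every gene in 1 library from wild-type (WT) and 1 library from ΔM bone marrow-derived macrophages (BMDMs). WT cells came from C57BL/6 littermates. ΔM cells came from C57BL/6 mice with the genotype TTP fl/fl LysMCre, in which a Cre recombinase driven from the lysozyme M locus removes the floxed TTP gene *Zfp36* in myeloid cells. Mice of both genotypes were 7 to 9 weeks old, and macrophages were grown from their marrow in medium containing CSF-1. Cells of both genotypes were given 100 μM 4-thiouridine (4sU), a uridine analog that makes RNA crosslinkable, for 16 h, and were then stimulated with 10 ng/ml of bacterial lipopolysaccharide (LPS) for 6 h according to the treatment protocol, while the sample titles end in LPS7, which they do not explain. The study used these libraries as expression controls for mapping where TTP binds RNA, and the comparison of WT with ΔM asks how transcript levels differ when TTP is missing.

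CC chemokines are small secreted proteins named for a pair of adjacent cysteines near the amino terminus. They bind G protein-coupled receptors on leukocytes and draw these cells to sites of infection or injury, and macrophages exposed to LPS are a major source of them. Several of their mRNAs carry AU-rich elements in the 3′ UTR, repeats of the pentamer ATTTA (with U for T in RNA), to which TTP binds. TTP recruits the deadenylation machinery and can so promote decay of bound mRNAs. The study reports that binding alone is not enough, because most mRNAs bound in the 3′ UTR were stable. A listed site is therefore no sign by itself that TTP drives decay of that mRNA. The genes are grouped below by a receptor each ligand is known to use, with the MIP-1 proteins and RANTES as a group of their own, although many CC chemokines use more than one receptor.

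For 6 of the 10 genes, the study's list of TTP binding sites gives sequences of sites in the 3′ UTR, and the first listed site of each gene is printed. These short sequences are shown because they let the AU-rich stretches of the transcripts be compared directly. Each is written 5′ to 3′ on the transcribed strand of chromosome 11 (NCBIM37, the assembly also called mm9), and capitals mark ATTTA. All 33 site sequences read for these genes were identical to the assembly at their stated positions. At most 30 bases of a site are shown.

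Ccl2, chr11:81850696-81850714, plus strand: gatgccttaattaatatta
Ccl7, chr11:81860755-81860777, plus strand: ttattaatatttttATTTAatta
Ccl12, chr11:81916847-81916856, plus strand: ataatATTTA
Ccl3, chr11:83461583-83461612, minus strand: cttcacttgaaattttATTTAATTTAatcc
Ccl4, chr11:83478043-83478072, plus strand: tattatttctattATTTAtgttttagttat
Ccl9, chr11:83388452-83388468, minus strand: gtattctttataaattc

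The stretch of *Ccl3* is the first 30 of 100 nt, and that whole site holds 5 copies of ATTTA. It starts 143 nt after the stop codon. The *Ccl4* stretch is 30 of 31 nt and starts 160 nt after the stop codon. Every base of the *Ccl7* and *Ccl12* sites shown here is A or T. The sites of *Ccl2* and *Ccl9* shown here contain no ATTTA and were 78.9% and 82.4% A or T. No site sequence was read for *Ccl5*, *Ccl6*, *Ccl17* or *Ccl22*.

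Levels are given as FPKM, the fragments of a gene per kilobase of exon after correction for sequencing depth, which puts genes of different lengths on a common scale. Depth was estimated here from the spacing of the lowest values, which are multiples of what 1 fragment is worth. The estimate was 37100000 fragments for WT and 32800000 for ΔM. Intervals printed after a level or a ratio are exact 95% Poisson or binomial intervals from these estimates, and they cover counting error only. With 1 library per genotype there is no replicate check and no p-value, so a difference below is a difference between these libraries.

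The targeted gene *Zfp36* (chr7:29161803-29164274, minus strand) was at 65.3 FPKM in WT against 16.7 FPKM in ΔM, a ratio of ΔM to WT of 0.256 (0.238 to 0.276). All 8 macrophage markers measured reached a mean of 1 FPKM, and their log2 ratios lay between -0.87 and 0.51. The extreme low value belonged to *Lyz2*, the gene of lysozyme M into which LysMCre is inserted, at 2481 FPKM in WT against 1356 FPKM in ΔM.

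Of the 10 CC chemokine genes, *Ccl3*, *Ccl2*, *Ccl12* and *Ccl7* were at least 2-fold higher in ΔM, *Ccl22* was at least 2-fold lower, and 5 differed by less than 2-fold. The measure was log2((ΔM FPKM + 1)/(WT FPKM + 1)), called the log2 ratio below, which understates the change of genes with low levels. All 10 passed a minimum mean of 1 FPKM, which 10765 genes of the table passed. Among those genes, 5.69% were at least 2-fold higher and 3.61% at least 2-fold lower in ΔM, and most of these were not protein-coding. Among the 8078 protein-coding genes that passed, the shares were 1.19% and 1.32%. The median log2 ratio was 0.16 over the 10 chemokine genes and 0.03 over all genes that passed. In bulk RNA, fewer cells of a type and less RNA per cell cannot be told apart, and this holds for every level below.

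**Figure D1:**
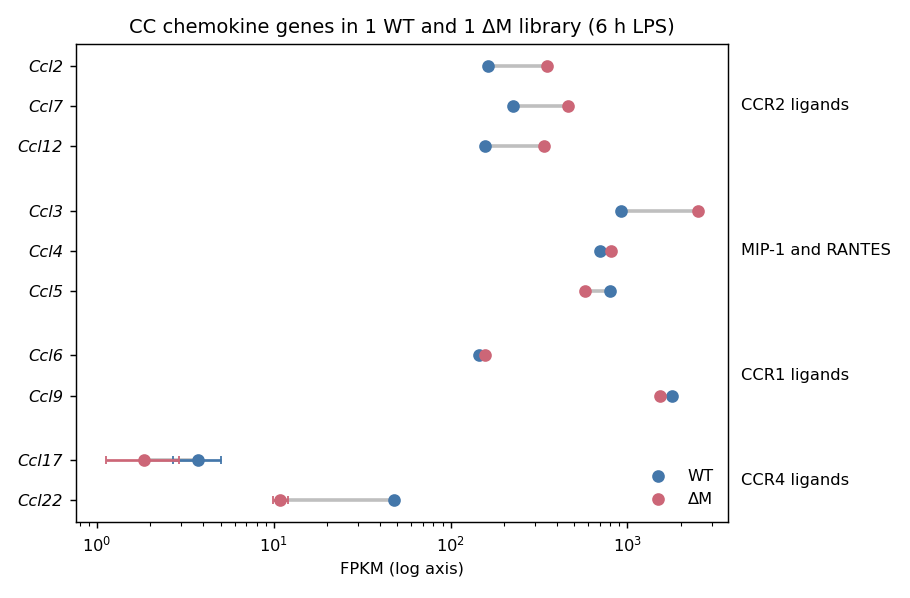
FPKM (log axis) of each CC chemokine gene in the WT library (blue) and the ΔM library (red), in the groups named at the right, with 95% counting intervals that are narrower than the points for most genes. The 3 CCR2 ligands and *Ccl3* lie to the right in ΔM, both CCR4 ligands lie to the left, and the remaining 4 genes are close together.

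*Ccl2*, *Ccl7* and *Ccl12* encode the monocyte chemoattractants MCP-1, MCP-3 and MCP-5, ligands of CCR2 that call inflammatory monocytes out of the bone marrow and into tissue. *Ccl2* (ENSMUSG00000035385) was at 163 FPKM in WT (158 to 168) against 353 FPKM in ΔM (346 to 360). *Ccl7* (ENSMUSG00000035373) was at 226 FPKM (220 to 232) and 464 FPKM (454 to 473). *Ccl12* (ENSMUSG00000035352) was at 157 FPKM (150 to 165) and 338 FPKM (327 to 349). All 3 genes were higher in ΔM, and for none of them did the counting intervals of the libraries overlap. The ratio of ΔM to WT was 2.17 for *Ccl2* (2.09 to 2.25), 2.05 for *Ccl7* (1.98 to 2.12) and 2.15 for *Ccl12* (2.03 to 2.27). The log2 ratios were 1.11, 1.03 and 1.10.

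The 3 ratios were close to each other. The log2 ratio of *Ccl2* exceeded that of *Ccl7* by 0.08 (0.01 to 0.15), and the difference between *Ccl2* and *Ccl12* was 0.01 (-0.08 to 0.11). Between *Ccl7* and *Ccl12* the difference was -0.07 (-0.16 to 0.03), so that the counting intervals of both differences with *Ccl12* include 0. *Ccl7* was the most abundant of the 3 in either library. The level of *Ccl2* was 1.03 times that of *Ccl12* in WT and 1.04 times in ΔM. Their counting intervals overlapped in both libraries, which is not a test of the difference, and none was made. Summed over the 3 genes, the level was 546 FPKM in WT against 1154 FPKM in ΔM, a ratio of 2.11.

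These 3 genes lie within 67.8 kb of chromosome 11 on the plus strand, *Ccl2* at chr11:81849073-81850955, *Ccl7* at chr11:81859214-81861027 and *Ccl12* at chr11:81915347-81916902. The eotaxin gene *Ccl11* lies between *Ccl7* and *Ccl12* and was at 0.00 FPKM in WT against 0.03 FPKM in ΔM. The next gene after *Ccl12* is *Ccl8*, which encodes MCP-2. *Ccl8* was at 23.6 FPKM in WT (20.9 to 26.6) against 48.8 FPKM in ΔM (44.6 to 53.3), a log2 ratio of 1.02. It was thus about 2-fold higher in ΔM at a level far below those of *Ccl2*, *Ccl7* and *Ccl12*. *Ccl1*, on the other side of *Ccl8*, was listed at 0 in both libraries. The gene model *Gm17268* overlaps *Ccl2* on the opposite strand and was also listed at 0 in both, which may be a failed estimate, so that reads of the overlap may not be told apart.

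*Ccl3*, *Ccl4* and *Ccl5* encode MIP-1α, MIP-1β and RANTES, which act on monocytes, macrophages, T cells and NK cells. *Ccl3* and *Ccl5* bind CCR1. *Ccl3* (ENSMUSG00000000982) was at 923 FPKM in WT (910 to 936) against 2501 FPKM in ΔM (2478 to 2524). *Ccl4* (ENSMUSG00000018930) was at 703 FPKM (691 to 716) and 805 FPKM (791 to 819). *Ccl5* (ENSMUSG00000035042) was at 795 FPKM (781 to 810) and 574 FPKM (561 to 587). The 3 genes had similar levels in WT and spread apart in ΔM, with *Ccl3* far above and *Ccl5* below its WT level.

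The ratio of ΔM to WT was 2.71 for *Ccl3* (2.66 to 2.76), 1.14 for *Ccl4* (1.12 to 1.17) and 0.722 for *Ccl5* (0.701 to 0.743). *Ccl3* had the highest log2 ratio of the 10 genes, at 1.44. The log2 ratio of *Ccl3* exceeded that of *Ccl4* by 1.24 (1.20 to 1.29) and that of *Ccl5* by 1.91 (1.86 to 1.96). *Ccl4* in turn exceeded *Ccl5* by 0.67 (0.61 to 0.72). Within this group the ratios differed by much more than the counting error, unlike those of the CCR2 ligands. *Ccl3* and *Ccl4* are neighbours, at chr11:83461346-83462857 on the minus strand and chr11:83476086-83478185 on the plus strand. *Ccl5* lies at chr11:83339280-83344020 on the minus strand.

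**Figure D2:**
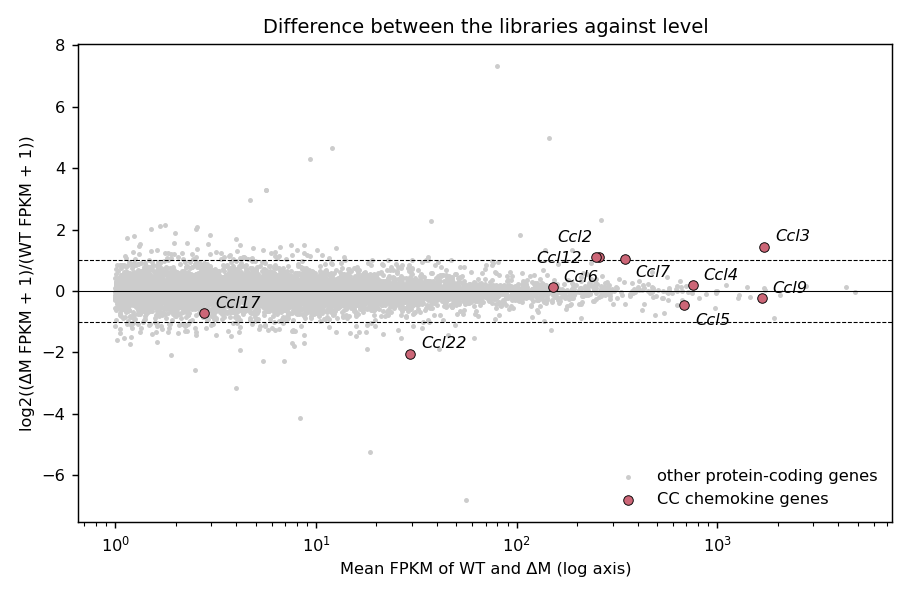
Log2 ratio of ΔM to WT (after adding 1 FPKM) against the mean FPKM of both libraries (log axis) for protein-coding genes that passed the minimum mean of 1 FPKM (grey) and the 10 CC chemokine genes (red). Dashed lines mark 2-fold, which *Ccl3*, *Ccl2*, *Ccl12* and *Ccl7* exceed above and *Ccl22* exceeds below.

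*Ccl6* and *Ccl9* encode the CCR1 ligands known as C10 and MIP-1γ, chemokines of mice that myeloid cells make also without stimulation. *Ccl9* (ENSMUSG00000019122) was at 1792 FPKM in WT (1762 to 1823) against 1524 FPKM in ΔM (1494 to 1554), the highest level of the 10 genes in WT. *Ccl6* (ENSMUSG00000018927) was at 144 FPKM (139 to 149) and 157 FPKM (152 to 163). Both genes differed little between the libraries. The ratio of ΔM to WT was 0.850 for *Ccl9* (0.828 to 0.873) and 1.09 for *Ccl6* (1.04 to 1.15), and the log2 ratios were -0.23 and 0.13. The log2 ratio of *Ccl6* exceeded that of *Ccl9* by 0.36 (0.28 to 0.44). The annotation holds 3 transcripts of *Ccl9* whose median length is 398 nt and whose longest is 3006 nt, so that the fragments behind its WT level come to 13101 or 186535, depending on the length used. With the longest transcript the ratio of *Ccl9* had an interval from 0.844 to 0.856.

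*Ccl9* (chr11:83386421-83392138) and *Ccl6* (chr11:83401384-83406589) lie on the minus strand between *Ccl5* and *Ccl3*. The interval from *Ccl5* to *Ccl4* spans 138.9 kb and holds genes on either side of their WT level. By position the log2 ratios were -0.47 for *Ccl5*, -0.23 for *Ccl9*, 0.13 for *Ccl6*, 1.44 for *Ccl3* and 0.19 for *Ccl4*. The other 4 protein-coding genes within 100 kb that reached a mean of 1 FPKM had log2 ratios between -0.35 and 0.50. A noncoding RNA gene, *E230016K23Rik*, overlaps *Ccl6* on the opposite strand and was at 0.10 FPKM in WT against 0.08 FPKM in ΔM. Whether strand was used when fragments were assigned to genes is not given in the sources used here, so reads of *Ccl6* and of this gene may not be told apart in the overlap.

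*Ccl17* and *Ccl22* encode TARC and MDC, ligands of CCR4 that attract type 2 helper and regulatory T cells and are known mainly from dendritic cells and alternatively activated macrophages. *Ccl22* (ENSMUSG00000031779) was at 48.0 FPKM in WT (45.9 to 50.2) against 10.9 FPKM in ΔM (9.84 to 12.02). *Ccl17* (ENSMUSG00000031780) was at 3.71 FPKM (2.69 to 5.0) and 1.85 FPKM (1.12 to 2.90). Both were lower in ΔM, *Ccl22* with intervals far apart and *Ccl17* with overlapping intervals. *Ccl22* was 4.41-fold higher in WT, with a log2 ratio of -2.04, the lowest of the 10 genes. For *Ccl17* the ratio of ΔM to WT was 0.499 (0.275 to 0.876) from about 43 and 19 fragments, and its log2 ratio was -0.72 after the addition of 1 FPKM. Without that addition its levels are almost exactly 2-fold apart, so its place under the 2-fold limit rests on the added 1 FPKM. The log2 ratio of *Ccl17*, here without the added 1 FPKM, exceeded that of *Ccl22* by 1.14 (0.34 to 1.93).

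*Ccl22* (chr8:97269490-97275599) and *Ccl17* (chr8:97334353-97335935) lie on the plus strand of chromosome 8, in an interval of 66.4 kb. The gene between them, *Cx3cl1*, encodes fractalkine, a chemokine of another family. *Cx3cl1* was at 2.98 FPKM in WT against 0.26 FPKM in ΔM, a log2 ratio of -1.66. All 3 chemokine genes of the interval were therefore lower in ΔM. The other 5 protein-coding genes within 100 kb that reached a mean of 1 FPKM lay between -0.43 (*Arl2bp*) and 0.41 (*Coq9*). The 7 dendritic cell markers measured were all below 1 FPKM, with sums of 0.69 FPKM in WT against 0.58 FPKM in ΔM, and the part of such cells in the CCR4 ligands was not tested beyond these levels.

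In order of level, the WT library had *Ccl9*, *Ccl3*, *Ccl5*, *Ccl4*, *Ccl7*, *Ccl2*, *Ccl12*, *Ccl6*, *Ccl22* and *Ccl17*. In ΔM the order was the same except that *Ccl3* stood before *Ccl9* and *Ccl4* before *Ccl5*. Only *Ccl2* and *Ccl12* were neighbours with overlapping counting intervals. Among all protein-coding genes, *Ccl3* was at rank 18 by FPKM in WT and rank 4 in ΔM, while *Ccl9* was at ranks 6 and 8. *Ccl2* was at ranks 213 and 79, and *Ccl22* at ranks 813 and 2832. The ranks of the chemokine genes thus shifted in both directions.

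The 10 genes summed to 4956 FPKM in WT against 6728 FPKM in ΔM, or 2.30% and 3.13% of the FPKM of all protein-coding genes. Their make-up differed between the libraries. *Ccl9* held 36.2% of the sum in WT and 22.6% in ΔM, and *Ccl3* held 18.6% and 37.2%. *Ccl5* held 16.0% and 8.53%, and the 3 CCR2 ligands together 11.03% and 17.2%. The CCR4 ligands were a minor part of the sum in either library, at 1.04% and 0.189%.

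**Figure D3:**
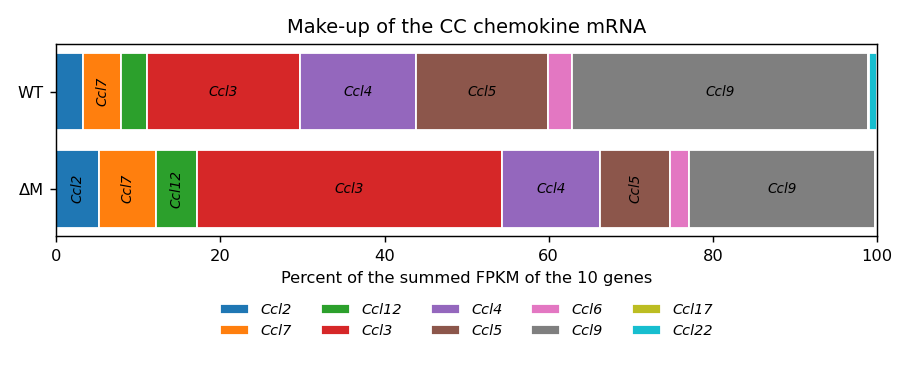
Share of each gene in the summed FPKM of the 10 CC chemokine genes (percent, from 0 to 100) in the WT and the ΔM library. The largest part is *Ccl9* in WT (36.2%) and *Ccl3* in ΔM (37.2%).

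The AU-rich motifs of the 3′ UTRs were compared next. In the longest annotated 3′ UTR of each gene, copies of the pentamer ATTTA and of the heptamer TATTTAT, which contains the pentamer, were counted on the transcribed strand, overlapping copies included. Of the 10 genes, 8 held the pentamer and 4 held the heptamer. Of 20007 genes with an annotated 3′ UTR, 61.3% held the pentamer and 23.8% the heptamer. Because long UTRs hold more copies, each gene was also set beside the UTRs whose length was within 10% of its own.

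*Ccl3* had 5 pentamers and 1 heptamer in 409 nt, and *Ccl12* had 5 pentamers and 1 heptamer in 167 nt. At least as many pentamers were found in 0.799% of UTRs as long as that of *Ccl3* and in 0.758% of those as long as that of *Ccl12*. The pentamers of *Ccl3* lay between 159 and 234 nt after the stop codon, inside the site of which the first bases are printed above. *Ccl4*, at 302 nt, had 2 pentamers and 1 heptamer, and 10.8% of UTRs of its length had at least as many pentamers. Of the other CCR2 ligands, *Ccl7* had 2 pentamers in 435 nt and *Ccl2* had 1 in 275 nt, numbers reached by 18.4% and 32.4% of UTRs of their length. *Ccl5*, with 199 nt, and *Ccl17*, with 182 nt, had none, like most UTRs of their length, of which 25% and 25.7% held the pentamer.

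The longer UTRs had more scattered copies. *Ccl6* had 4 pentamers in 943 nt and *Ccl9* had 5 in 2465 nt, numbers reached by 12% and 40.1% of UTRs of their length. *Ccl22* had 2 pentamers and 1 heptamer in 1813 nt, where 68.3% of UTRs of its length had at least as many pentamers. The 4 genes that were at least 2-fold higher in ΔM therefore ranged from 1 to 5 pentamers, and *Ccl22*, the gene that was lower, had 2.

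**Figure D4:**
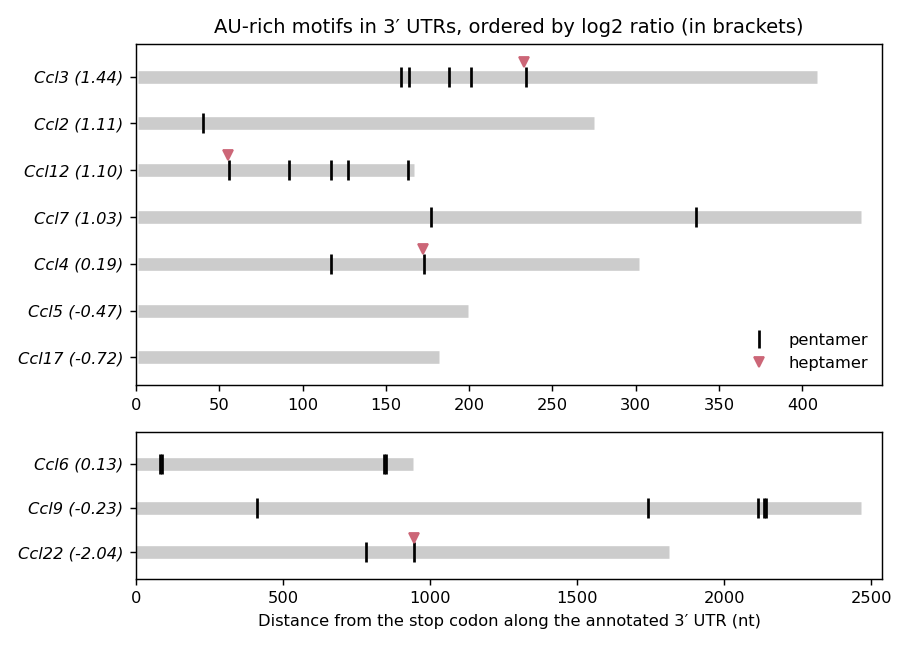
Positions of the pentamer (black ticks) and the heptamer (red triangles) along the longest annotated 3′ UTR (grey bars) of each CC chemokine gene, in nt after the stop codon, with UTRs of up to 500 nt in the upper panel and longer ones in the lower panel. Genes are ordered within a panel by the log2 ratio of ΔM to WT in brackets. *Ccl3* and *Ccl12* hold 5 pentamers each, and *Ccl5* and *Ccl17* hold none.

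Over the 10 genes, the number of pentamers per 100 nt and the log2 ratio had a Pearson r of 0.56 and a Spearman rho of 0.80. The density was 2.99 per 100 nt for *Ccl12* and 1.22 for *Ccl3*, and without these genes r was 0.63 and rho 0.75. The share of A and T in the 3′ UTR, which ranged from 48.4% in *Ccl17* to 71.6% in *Ccl2*, had r of 0.79 and rho of 0.81 with the log2 ratio. The plain number of pentamers had r of 0.39 and rho of 0.44, and r of 0.066 and rho of 0.16 without *Ccl12* and *Ccl3*. The length of the 3′ UTR, by which the density is divided, had r of -0.51 and rho of -0.21. Without *Ccl9* and *Ccl22* its r was 0.065 and its rho 0.17. The parts of motif number and length in the density relation were not separated. All values come from the same pair of libraries, and neighbouring chemokine genes share sequence, so the genes are not independent points. Over all 7935 protein-coding genes that passed the minimum and have an annotated 3′ UTR, rho with the log2 ratio was -0.0095 for pentamers per 100 nt and -0.042 for the share of A and T.

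Receptors of these chemokines were measured in the same cells. Of 10 CC chemokine receptor genes, 2 reached a mean of 1 FPKM and neither passed 2-fold. *Ccr1* was at 5.72 and 6.47 FPKM, and *Ccr2*, the receptor of the monocyte chemoattractants, at 1.87 and 2.45 FPKM. *Ccr4*, the receptor of *Ccl17* and *Ccl22*, was listed at 0 in both libraries. Atypical receptors are a class known to bind chemokines without G protein signalling. Of the genes listed as such, only *Ccrl2* reached 1 FPKM, at 35.2 FPKM in WT against 25.4 FPKM in ΔM. Chemokine binding by *Ccrl2* itself was not examined. Of 20 genes for signalling downstream of the receptors, 17 reached a mean of 1 FPKM, and their log2 ratios lay between -0.50 (*Dock2*) and 0.35 (*Gnb2*), with none past 2-fold.

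Of the 14 other CC chemokine genes looked for, 13 were in the table and 2 reached 1 FPKM in a library. *Ccl8* is described above, and *Ccl24*, which encodes eotaxin-2, was at 1.09 FPKM in WT against 0.56 FPKM in ΔM. The remaining genes, among them the homeostatic chemokines *Ccl19* and *Ccl21a*, were below 1 FPKM in both libraries. Only unique alignments were kept, so values of similar gene copies, such as *Ccl21a*, *Ccl21b* and *Ccl21c*, may be too low. By the listed values, the CC chemokine FPKM was nearly all from the 10 genes. The others summed to 25.8 FPKM in WT against 50.7 FPKM in ΔM.

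Markers of other cell types were mostly near 0. *S100a8*, a neutrophil and monocyte gene, was at 50.7 FPKM in WT against 100.0 FPKM in ΔM. *S100a9*, *Ly6g*, *Elane* and *Retnlg* were listed at 0 in both libraries, and a listed 0 can be a failed estimate. *Lck*, a T cell kinase, was at 9.58 and 10.8 FPKM with *Cd3e* and *Cd3g* listed at 0. B cell, NK cell, mast cell and fibroblast markers were all below 1 FPKM. The part of *S100a8*-expressing cells in the chemokine levels was not tested.

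For each chemokine gene, the protein-coding gene outside the family with the nearest pair of levels was found by the distance in log2(FPKM + 1) over the 2 libraries. The nearest gene to *Ccl2* and to *Ccl12* was *Tnf*, the gene of tumor necrosis factor, at 161 FPKM in WT against 306 FPKM in ΔM, at distances of 0.21 and 0.15. *Ccl7* was nearest to *Nos2* (0.45) and *Ccl22* to *2210012G02Rik* (0.37). *Ccl3* had no close neighbour, with *Ctss* at a distance of 0.94. *Ccl6* and *Ccl4*, which differed little between the libraries, had close neighbours in *Rnf213* (0.02) and *Pltp* (0.05). *Ccl5* was nearest to *Tnfrsf1b* (0.12), *Ccl9* to *B2m* (0.20) and *Ccl17* to *Rnf141* (0.05).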

How the data were processed

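RNA-Seq was performed on 1 WT and 1 ΔM library of rRNA-depleted RNA. After adapter trimming the authors aligned reads to mm9 with Segemehl, retained unique alignments and calculated FPKM per gene with Cufflinks on Ensembl exons, and the deposited FPKM values were used without further scaling. Reads shared by similar chemokine genes are thereby left out. FPKM is not a count, so no count model was used. Gene types and transcript lengths came from GENCODE M1, which held 37039 of the 37451 identifiers, and 1 gene without a number in ΔM was left out.

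Depth was estimated as the number of fragments, with the mean length (202 nt in both libraries), at which low FPKMs come to whole fragments. Of these, 84.2% in WT and 87.3% in ΔM lay within 0.1 of a whole number, against 20% for an even spread. The search was tested on 3 simulated libraries of 8191 genes, with errors of at most 0.8% in the number of fragments. The simulation used the same formula and single-transcript genes as the search. It therefore cannot show whether the deposited values follow that formula, and it does not cover genes with more transcripts. Counting intervals used the median annotated transcript length, and intervals of differences between log2 ratios used the delta method on estimated fragments, without a pseudocount.

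Log2 ratios used a pseudocount of 1 FPKM and genes whose mean reached 1 FPKM. Alternatives covered the pseudocount, the filter, the gene types, centring, rescaling, the denominator and the transcript length. All 10 members were named, and the other CC chemokine and receptor genes were to be named where they reached 1 FPKM. Neighbours of members, the extremes of lists, cell markers and the named genes listed at 0 or under 1 FPKM were chosen after their values were seen. The result for 1 gene of the receptor list is not reported here. The members and lists were chosen with earlier results of these data known. Python 3.11.15, numpy 2.4.6, pandas 2.3.3, scipy 1.17.1 and matplotlib 3.10.9 were used.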

Additional observations from a re-analysis of the deposited data

How the results depend on the processing

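Of 112 values calculated under alternatives, 99 stayed within the limit set for them and 13 moved. The limit was, for example, the counting error for a single gene or 1.5 times for a count. The 112 values include the bounds of the counting intervals, recalculated with the longest annotated transcript. A longer transcript can only narrow an interval around the same level, and an equal length leaves it unchanged. These bounds therefore could not move, and the number 99 is no measure of stability. None of the 40 log2 ratios of single chemokine genes changed sign. The counts of 4 genes higher and 1 gene lower by at least 2-fold were also the same. This held with a pseudocount of 0.1 or 5 FPKM, with centring and with rescaling. A pseudocount added to both libraries cannot change a sign. Centring removed a median of -0.00148 and rescaling shifted log2 ratios by 0.00423, while the smallest chemokine log2 ratio in size was 0.126 (*Ccl6*). These shifts were too small to change a sign or a count. With a pseudocount of 5 FPKM the log2 ratio was -1.74 for *Ccl22* and -1.69 for *Zfp36*. The log2 ratio of *Ccl17* was -0.97 with 0.1 FPKM and -0.35 with 5 FPKM, both within its counting error. The share of genes at least 2-fold higher in ΔM was 1.72% without a filter and 1.19% in protein-coding genes, and the share at least 2-fold lower was 1.12% and 1.32%. The median log2 ratio over all genes was 0.038 for genes whose mean reached 10 FPKM, 0 without a filter and, with a change of sign, -0.0015 in protein-coding genes. The chemokine sum was 2.32% of protein-coding FPKM in WT and 3.16% in ΔM when the denominator held only genes whose mean reached 1 FPKM. Without the most abundant chemokine gene of each library it was 1.47% and 1.97%. No paired analysis was possible because each genotype has 1 library, and for the same reason no replicate could be left out. The spread between mice and cultures is therefore unknown from these libraries. The study also compared WT and ΔM macrophages in separate libraries with biological replicates, which were not used here. Counting error was widest, relative to level, for *Ccl17*. The interval of the *Ccl7* ratio (1.98 to 2.12) included 2-fold, and the small difference in level between *Ccl2* and *Ccl12* was not tested.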
